A study of Mus musculus with 3 samples.

Results

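Histone deacetylases remove acetyl groups from lysines of histones and of other proteins, and the 10 genes described here belong to the zinc-dependent family: Hdac1, Hdac2, Hdac3, Hdac4, Hdac5, Hdac6, Hdac7, Hdac8, Hdac9 and Hdac11. They were chosen by gene symbol from the 23271 genes of the merged table and not by their values, although earlier results of these data were known. The study profiled mouse small intestinal organoids by Seq-Well, a nanowell method that tags the 3′ ends of transcripts from single cells with unique molecular identifiers (UMIs), in 1 library per condition. The mice were C57BL/6 of either sex, 3 to 6 months of age, but the organoid libraries came from 1 donor, so the spread between animals is not covered. All organoids passed through a stem cell-enriching culture that itself contained CHIR99021 and valproic acid.

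The 3 conditions lasted 6 days and shared the growth factors EGF, Noggin and R-spondin 1. ENR, the control, held these factors with no added compound. ENR+CD, meant to enrich Paneth cells (PCs), added 3 µM CHIR99021, a GSK3 inhibitor that raises Wnt signalling, and 10 µM DAPT, a gamma-secretase inhibitor that blocks Notch signalling. ENR+CV, meant to enrich intestinal stem cells (ISCs), added 3 µM CHIR99021 and 1 mM valproic acid, an inhibitor of histone deacetylase activity. The deacetylase inhibitor was therefore present during the 6 days only in ENR+CV, but the cells of ENR and ENR+CD had met it earlier. Because ENR+CV also differs from ENR by CHIR99021, and each condition is 1 library, the compounds, the cell types present and the library cannot be told apart, and no test between conditions was possible. All intervals are exact 95% intervals that cover counting error only.

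The sample labels and the tables did not fully match. The merged table names its cells by condition, and these names were used. The separate table attached to the ENR+CD sample held the 1092 cells that the merged table names ENR+CV, and the table attached to the ENR+CV sample held the 2506 cells named ENR+CD. The names in the merged table match the source names in the labels, and the numbers of cells kept under them match those the study states per condition to within a single cell. Under the attachments, the ENR+CD and ENR+CV values would change places. The Paneth list (11 genes such as Lyz1 and Defa24) took 14.1% of UMIs in the library named ENR+CD and 0.548% in the library named ENR+CV, against 3.42% in ENR.

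After cells with at least 1000 and fewer than 8000 UMIs and at least 400 genes were kept, 2545 ENR, 2383 ENR+CD and 985 ENR+CV cells remained, with 5095089, 4538388 and 2942252 UMIs. The libraries differed in quality measures. Median UMIs per cell were 1553, 1543 and 2499, and the median mitochondrial share of a cell was 14.7%, 7.18% and 2.41%. Epithelial Epcam was at 1211, 1190 and 1690 CPM (UMIs scaled to a library total of 1000000). Of the listed immune genes, Cd3e had 0 UMIs in all 3 libraries, Ptprc 1, 1 and 2, and Cd68 10, 12 and 5. Lyz2, also on that list, had 256, 1048 and 26 UMIs, and the stromal list gene Acta2 had 90, 48 and 15. Other cell types in small numbers are therefore not excluded. Barcodes were nearly all distinct, with 1 shared between ENR and ENR+CD.

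Class I deacetylases (Hdac1, Hdac2, Hdac3 and Hdac8) are mostly nuclear enzymes: Hdac1 and Hdac2 are the catalytic subunits of the Sin3, NuRD and CoREST corepressor complexes, and Hdac3 that of the NCoR and SMRT complexes. Class IIa members (Hdac4, Hdac5, Hdac7 and Hdac9) have weak catalytic activity of their own, shuttle between nucleus and cytoplasm and bind Mef2 transcription factors. Hdac6, of class IIb, is a cytoplasmic tubulin deacetylase, and Hdac11 is the only class IV member. In the intestine, Hdac1 and Hdac2 are known for roles in epithelial proliferation and differentiation, and Hdac3 for roles in Paneth cell survival and barrier function.

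The upstream sequences of 3 members are shown because Hdac2 had the most UMIs of the family and Hdac5 and Hdac7 differed in opposite directions between ENR+CD and ENR. They are the 250 bases before the RefSeq start on GRCm38.p6, in the direction of the gene, and 8 of the 10 members had such an entry. Capitals mark GGGCGG (GC box) and CCAAT on either strand. Over all 32851 promoter entries of this length, 32.7% held GGGCGG and 33.8% held CCAAT. The E-box CACGTG and TATAAA were also searched on both strands and were not in these 3 windows. Hdac2 lies at chr10:36974294-36974543 on the plus strand, Hdac5 at chr11:102230173-102230422 on the minus strand, and Hdac7 at chr15:97831496-97831745 on the minus strand, which is the start that matched most GENCODE transcripts among the 4 listed for Hdac7.
Hdac2: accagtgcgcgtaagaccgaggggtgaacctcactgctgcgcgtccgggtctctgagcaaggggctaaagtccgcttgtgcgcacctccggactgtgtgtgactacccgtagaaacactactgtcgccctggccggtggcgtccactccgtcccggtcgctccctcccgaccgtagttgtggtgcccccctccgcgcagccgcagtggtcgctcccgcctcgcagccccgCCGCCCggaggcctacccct
Hdac5: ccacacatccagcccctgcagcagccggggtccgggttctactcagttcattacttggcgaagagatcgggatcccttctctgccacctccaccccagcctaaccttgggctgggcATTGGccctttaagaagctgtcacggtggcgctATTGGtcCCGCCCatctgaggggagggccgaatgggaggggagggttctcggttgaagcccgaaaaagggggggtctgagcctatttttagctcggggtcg
Hdac7: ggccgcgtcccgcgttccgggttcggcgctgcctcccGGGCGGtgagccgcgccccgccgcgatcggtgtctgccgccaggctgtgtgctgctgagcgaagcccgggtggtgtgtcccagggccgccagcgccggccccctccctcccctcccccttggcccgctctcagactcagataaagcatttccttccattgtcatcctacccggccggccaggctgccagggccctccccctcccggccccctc
The Hdac7 window was 74.0% G and C, the Hdac2 window 68.8% and the Hdac5 window 60.8%. Hdac5 held both motifs, with 1 GC box and 2 CCAAT boxes, while Hdac2 and Hdac7 held 1 GC box each. A match describes the letters only.

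Class I transcripts made up most of the family in every library. Their share of Hdac UMIs was 74.4% (ENR), 77.5% (ENR+CD) and 83.1% (ENR+CV). UMI counts from 3′ tags do not scale with transcript length, although 3′ ends differ in how well they are captured, so the order between genes is approximate. In ENR the order was Hdac2, Hdac1, Hdac3 and Hdac11, with overlapping intervals between Hdac1 and Hdac3. In ENR+CD the same 4 genes led in the same order, and there the intervals of Hdac2 and Hdac1 overlapped. In ENR+CV Hdac1 came first, but its interval overlapped that of Hdac2, and that of Hdac2 overlapped that of Hdac3.

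**Figure D1:**
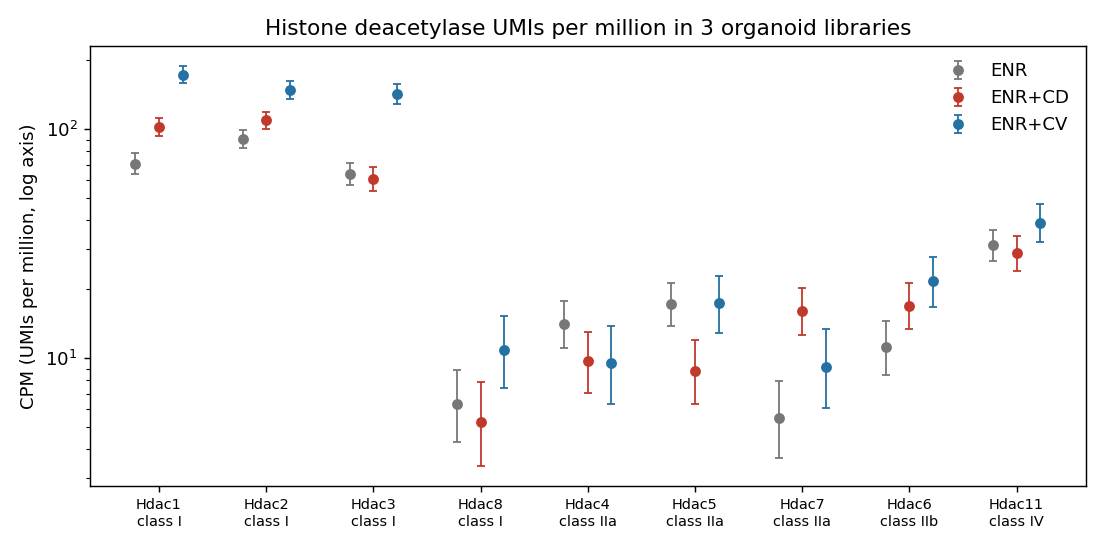
Level of 9 Hdac members in CPM (log axis), with points for the ENR, ENR+CD and ENR+CV libraries and bars for exact 95% Poisson intervals. Hdac1, Hdac2 and Hdac3 sat highest in ENR+CV, at 173, 149 and 143 CPM, and Hdac7 was highest in ENR+CD at 16.1 CPM; Hdac9, with at most 1 UMI per library, is not drawn.

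Hdac1 (chromosome 4, 129516104 to 129542713 on GRCm38) was at 70.9, 103 and 173 CPM in ENR, ENR+CD and ENR+CV, and the 3 intervals did not overlap. Its ratio was 1.45 (1.26 to 1.67) in ENR+CD over ENR and 2.45 (2.13 to 2.81) in ENR+CV over ENR. The 3′ end of Hdac1 shares a stretch of 90 identical bases with the processed pseudogene Gm10093, which was counted separately, so the split of reads between them is uncertain. Gm10093 had 149, 195 and 144 UMIs, and with both summed the ratios were 1.46 (1.29 to 1.64) and 2.22 (1.97 to 2.50).

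Hdac2 (chromosome 10, 36974544 to 37001889), the partner of Hdac1 in the same complexes, was at 90.9, 109 and 149 CPM in ENR, ENR+CD and ENR+CV. Its differences were smaller than those of Hdac1, at 1.20 (1.06 to 1.37) in ENR+CD over ENR and 1.63 (1.43 to 1.87) in ENR+CV over ENR. Hdac3 (chromosome 18, 37935844 to 37955016) was at 63.6, 60.6 and 143 CPM. ENR and ENR+CD overlapped for Hdac3, while ENR+CV stood apart from both, with ratios of 2.24 (1.94 to 2.60) over ENR and, for ENR+CD over ENR+CV, 0.424 (0.363 to 0.495). Hdac8, the class I member that acts on cohesin, was scarce at 6.28, 5.29 and 10.9 CPM, from 32, 24 and 32 UMIs, and the 3 intervals overlapped. Its ratio intervals were narrower, at 1.73 (1.03 to 2.92) in ENR+CV over ENR and 0.486 (0.274 to 0.852) in ENR+CD over ENR+CV.

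Class IIa was low and did not follow class I. Summed over its members it was at 37.1, 34.8 and 36.0 CPM, with overlapping intervals. Hdac4 was at 14.1, 9.70 and 9.52 CPM. Hdac5 was at 17.3, 8.81 and 17.3 CPM, and only its ENR+CD interval lay below the others. Hdac7, known for its part in endothelial and lymphoid cells, was at 5.50, 16.1 and 9.18 CPM, from 28, 73 and 27 UMIs, and its ENR+CD interval lay above that of ENR but overlapped that of ENR+CV. The ratio of ENR+CD over ENR was 0.510 (0.342 to 0.750) for Hdac5 and 2.93 (1.87 to 4.70) for Hdac7. For Hdac7 the ratio of ENR+CD over ENR+CV was 1.75 (1.11 to 2.84). Hdac7 overlaps Slc48a1 on the other strand by 29 bases. Hdac9 was at the detection limit, with 1, 1 and 0 UMIs, and was not assessed in any pair.

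Hdac6 was at 11.2, 17.0 and 21.8 CPM, and its ENR and ENR+CV intervals were separate. Hdac10, the other class IIb gene, was not among the 10 genes chosen, and had 44, 53 and 29 UMIs. Hdac11 was at 31.2, 28.9 and 39.1 CPM, with overlapping intervals, though its ratio of ENR+CD over ENR+CV was 0.739 (0.570 to 0.957). Hdac11 overlaps the antisense gene Gm14573 by 544 bases and Hdac8 overlaps Gm14858 on the other strand, and whether strand was used in counting is not given in the sources used here.

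Because the median gene was not at the same level in all 3 libraries, ratios were also read against it. Over genes with at least 20 UMIs in the pair, the median ratio was 0.996 in ENR+CD over ENR, 1.28 in ENR+CV over ENR and 0.778 in ENR+CD over ENR+CV, so the shift lay in the pairs with ENR+CV. In each pair 9 of the 10 members could be assessed, all but Hdac9. The summed Hdac ratio after division by the median gene was 1.16 (1.08 to 1.24) in ENR+CD over ENR, 1.44 (1.346 to 1.55) in ENR+CV over ENR and 0.805 (0.752 to 0.862) in ENR+CD over ENR+CV. These sums follow Hdac1, Hdac2 and Hdac3, which hold most of the UMIs. The median member was closer to the median gene, at a log2 ratio of -0.07 against -0.01 for all genes, 0.74 against 0.35, and -0.44 against -0.36.

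The choice of the reference genes mattered. With no minimum count, where undetected genes enter at the floor of 3 counts, the same ratios were 1.03, 1.06 and 0.966, and the intervals of all 3 then included 1. With no minimum but the median taken only over genes found in both libraries, a setting chosen after those values were seen, they were 1.11, 1.39 and 0.821. Read counts in place of UMIs turned the ENR+CD over ENR ratio below 1, to 0.973.

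Members were first called where levels differed 2-fold or more and intervals were separate. Hdac7 was higher in ENR+CD than in ENR (1 of 9 members, against 10.8% of all genes) and no member was lower (against 9.35%). Hdac1 and Hdac3 were higher in ENR+CV than in ENR (2 of 9, against 15.9%) and none was lower (against 5.80%). In ENR+CD over ENR+CV, Hdac3 was lower (1 of 9, against 18.9%) and none was higher (against 7.10%). With so few members, these shares do not set the family apart from other genes.

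By the second rule, at least 1.5-fold against the median gene with an interval that left out 1, ENR+CD over ENR had Hdac6 and Hdac7 higher (2 of 9, against 19.3%) and Hdac5 lower (1 of 9, against 19.0%). ENR+CV over ENR had Hdac1, Hdac3 and Hdac6 higher (3 of 9, against 17.2%) and Hdac4 lower (1 of 9, against 16.9%). Against the median gene these were 1.92 (1.67 to 2.20) for Hdac1, 1.76 (1.52 to 2.04) for Hdac3, 1.52 (1.05 to 2.22) for Hdac6 and 0.528 (0.328 to 0.827) for Hdac4. ENR+CD over ENR+CV had Hdac7 higher (1 of 9, against 20.4%) and Hdac3 lower (1 of 9, against 20.1%). Hdac6 lay close to the threshold. Its call was lost under 7 of 12 other settings in ENR+CD over ENR, where its ratio ran from 1.27 to 1.95, and under 9 of 12 in ENR+CV over ENR, where it was 1.12 (0.673 to 1.82) in cells with fewer than 4000 UMIs. Hdac4 lost its call under 3 settings, at 0.703 (0.394 to 1.20) in cells with fewer than 4000 UMIs. Hdac3 lost its call in ENR+CV over ENR under 3 settings and Hdac1 under 2, with lowest ratios of 1.30 and 1.41. Hdac5 in ENR+CD over ENR and Hdac3 in ENR+CD over ENR+CV lost theirs under 1 setting each, with highest ratios of 0.736 and 0.657. Hdac7 kept its call in ENR+CD over ENR under all 12, from 2.25 to 4.02, but lost that in ENR+CD over ENR+CV under 2. Among cells with a mitochondrial share of 5 to 10%, that of Hdac7 in ENR+CD over ENR was the only call kept. This range, chosen after the data were seen, held fewer cells. Since all 3 pairs share libraries, these lists are not independent of each other.

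**Figure D2:**
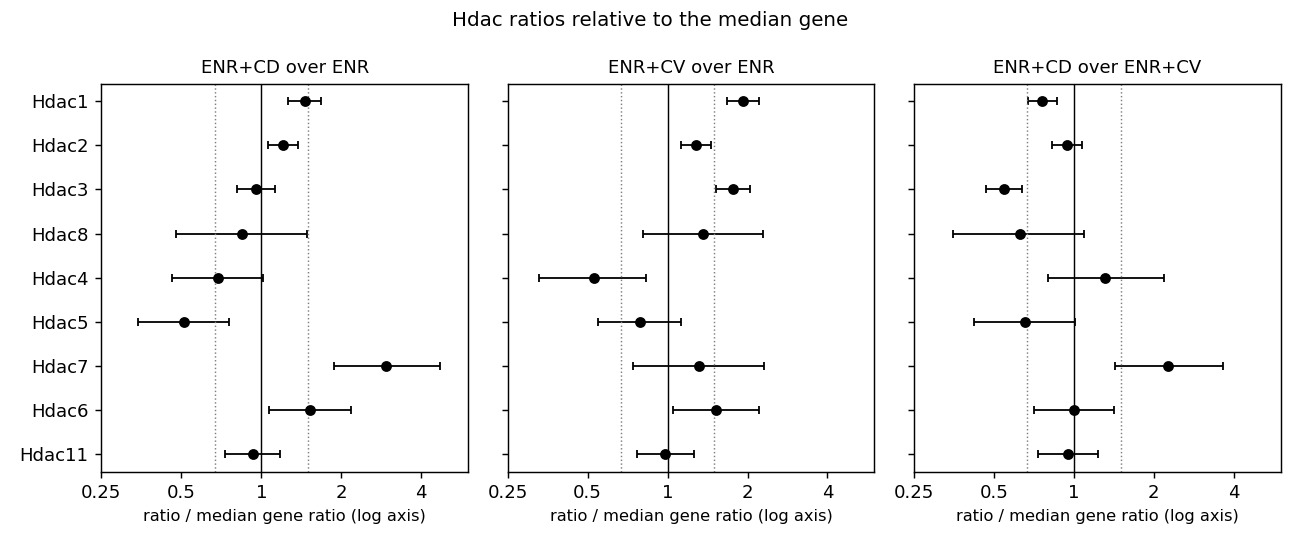
Ratio of CPM divided by the ratio of the median gene (log axis) for 9 Hdac members in 3 pairs of libraries, with exact 95% intervals for counting error, a solid line at 1 and dotted lines at 1.5-fold either way. Hdac1 at 1.92 and Hdac3 at 1.76 lay right of the lines in ENR+CV over ENR, and Hdac7 at 2.94 in ENR+CD over ENR.

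Depth and mitochondrial share moved with the class I level. In ENR+CV the third of cells with most UMIs had a class I level 1.31 (1.17 to 1.46) times that of the other cells, and in ENR 1.21 (1.07 to 1.36), against 1.06 (0.948 to 1.19) in ENR+CD. With every cell thinned to 1000 UMIs, the summed Hdac ratio of ENR+CV over ENR against the median gene was 1.33. In the third of cells with the highest mitochondrial share, class I was at 0.683 (0.595 to 0.781) of the other cells in ENR and 0.678 (0.586 to 0.783) in ENR+CV, against 1.09 (0.972 to 1.23) in ENR+CD. Among cells with a mitochondrial share of 5 to 10% only, a setting chosen after the data were seen, class I was at 260.2 CPM (232 to 291) in 547 ENR cells, 270.4 (249 to 293) in 1135 ENR+CD cells and 423 (346 to 513) in 121 ENR+CV cells. The ENR and ENR+CD intervals overlapped and that of ENR+CV lay above both. The median share inside this range was 8.21%, 7.06% and 7.25%, so it was not fully matched.

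The total that a level is divided by also differed. Without mitochondrial genes and the 100 genes with most UMIs, 61.5% of ENR, 58.3% of ENR+CD and 76.1% of ENR+CV UMIs were left. The summed Hdac ratio, not centred, then went from 1.84 to 1.49 (1.39 to 1.59) in ENR+CV over ENR and from 0.626 to 0.817 (0.763 to 0.876) in ENR+CD over ENR+CV. It stayed at 1.22 (1.13 to 1.30) against 1.15 in ENR+CD over ENR.

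Cells were also ranked by proliferation genes. The third of cells with the largest share of UMIs on 29 proliferation genes had 1.14 (1.01 to 1.28) times the class I level of the rest in ENR. The ratio was 1.18 (1.05 to 1.32) for ENR+CD and 1.07 (0.955 to 1.19) for ENR+CV. With cells thinned to 1000 UMIs all 3 intervals included 1, at 1.05 (0.886 to 1.25), 1.13 (0.958 to 1.33) and 1.05 (0.852 to 1.28). Without mitochondrial and Paneth list genes in the total they also included 1, at 1.08 (0.958 to 1.22), 1.12 (0.994 to 1.26) and 1.04 (0.934 to 1.16). These are ranges of cells and not cell types.

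**Figure D3:**
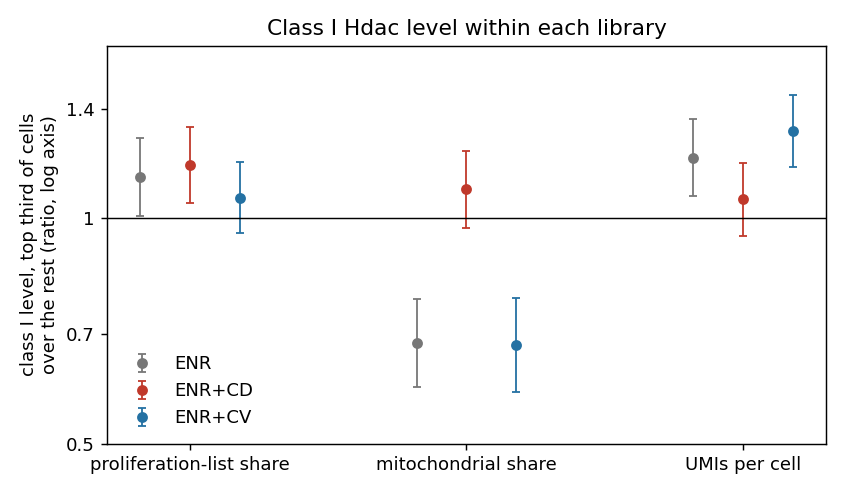
Class I Hdac level in the third of cells ranked highest over the other cells (ratio, log axis) within each library, with cells ranked by proliferation-list share, mitochondrial share or UMIs per cell and bars for exact 95% counting intervals. The mitochondrial ranking, with mitochondrial UMIs kept in the total, gave 0.683 in ENR and 0.678 in ENR+CV but 1.09 in ENR+CD.

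Cells of each library were clustered without the Hdac genes, giving 11 ENR clusters, 10 ENR+CD clusters and 9 ENR+CV clusters. Clusters took a name only where at least 3 fixed markers were among their 10 leading genes. The highest and lowest clusters are named here by their measured class I level, so their difference is a description. In ENR, class I ran from 104 CPM in goblet-like cluster 9 (19 UMIs) to 291 in EEC-like (enteroendocrine-like) cluster 8 (70 UMIs), and unnamed cluster 6 was also at 291 (309 UMIs). The other goblet-like cluster of ENR, cluster 4, was at 225 CPM (163 UMIs), so a low level was not shared by both. In ENR+CD it ran from 146 CPM in cluster 7, led by defensin-related genes such as Defa5, to 419 in cluster 8, led by Ccl2 and Notum. Cluster 4 of ENR+CD, led by the mitotic genes Kif23, Plk4 and Cdc20, was at 399 CPM. In ENR+CV the range was 163 CPM in cluster 7, led by predicted short genes such as Gm22550, to 581 in cluster 4. With clusters at resolution 0.8, class I ran from 149 to 288 CPM in ENR, 154 to 421 in ENR+CD and 224 to 540 in ENR+CV.

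The low level in the defensin-led clusters moved with the share of UMIs that PC products took. In cluster 7 of ENR+CD the Paneth list took 37.0% of UMIs and 35.4% of UMIs were left outside the mitochondrial and 100 most abundant genes. Scaled to those remaining UMIs, class I was at 412 CPM in cluster 7, 420.1 in cluster 1 and 422 in cluster 5, the 3 clusters led by PC genes, against 587 in cluster 8 and 577 in cluster 4. On this scale they were not the lowest, since cluster 10 was at 281 and cluster 2 at 411. The part of the PC transcripts in the unadjusted values was not tested.

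Hdac1 was at 38.5 CPM (21.1 to 64.6) in cluster 7 of ENR+CD and 159 (128 to 195) in cluster 4. Hdac3 was at 24.8 (11.3 to 47.0) and 82.2 (60.4 to 109) in the same clusters. Hdac7 was unevenly spread in ENR+CD, with 13 UMIs (33.9 CPM) in cluster 8, 17 (29.7 CPM) in cluster 4 and 9 (30.7 CPM) in EEC-like cluster 9. Cluster 3 held 15 (17.5 CPM), cluster 10 held 3 (20.35 CPM), cluster 6 held 3 (9.90 CPM) and cluster 2 held 4 (7.88 CPM). Of the 3 clusters led by PC genes, cluster 1 held 7 (12.5 CPM). Clusters 5 (1.81 CPM) and 7 (2.75 CPM) held 1 UMI each. Clusters 2 and 6 were below cluster 1, so low Hdac7 was not limited to the clusters led by PC genes. The interval of cluster 1 (5.03 to 25.8) overlapped those of clusters 8, 4 and 9. Those of clusters 5 (0.0458 to 10.1) and 7 (0.0697 to 15.3) lay below those of clusters 8 and 4. Together the 3 clusters led by PC genes held 9 of the 73 Hdac7 UMIs in that library. For all genes, clusters 1, 5 and 7 held 559452, 553187 and 363426 of the 4538388 UMIs. These levels of single members are not scaled to the remaining UMIs, and the part of the PC transcripts in them was not tested.

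**Figure D4:**
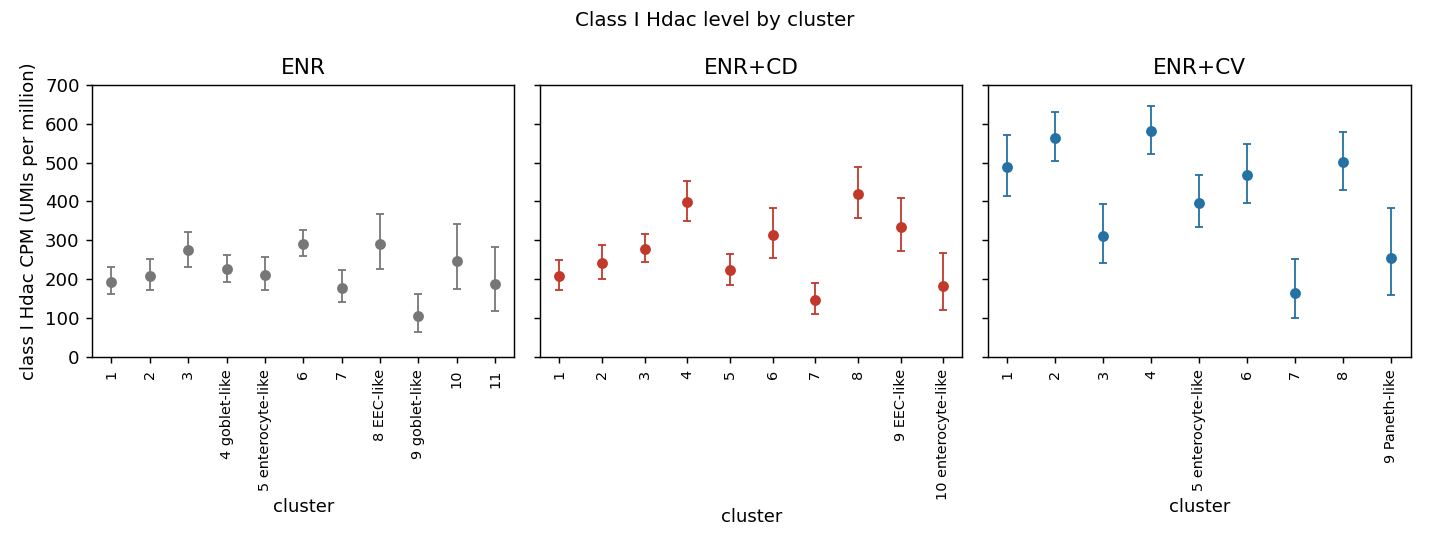
Class I Hdac CPM (linear axis from 0) in each cluster of the ENR, ENR+CD and ENR+CV libraries, with exact 95% Poisson intervals and cluster names where markers allowed one. The ENR clusters ran from 104 to 291, the ENR+CD clusters from 146 to 419 and the ENR+CV clusters from 163 to 581.

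Over the 30 clusters of all libraries, the genes whose log2 (CPM + 1) was most like that of Hdac2 were Pomk (Pearson r = 0.82), Tab3 (0.80), Agpat6 (0.80), Pdia4 (0.79) and Gtf3c4 (0.78). Hdac3 (0.61), Hdac1 (0.60) and Hdac6 (0.55) were less like it. Hdac11 (0.13), Hdac5 (0.05) and Hdac7 (-0.01) were hardly like it, and Hdac4 (-0.33) went the other way. The first 5 were the highest of 9711 genes considered. Pomk, Tab3 and Gtf3c4 had only 135, 154 and 178 UMIs in all, while Agpat6 and Pdia4 had 585 and 2177. Hdac4, Hdac5 and Hdac7 had 144, 179 and 128 UMIs, so counting error weighs on their values too. The clusters share libraries and depth, so all these values are descriptive.

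Genes that work with or against the deacetylases were read by the same rule. Of 35 corepressor subunits, 5 were higher and 1 lower in ENR+CV than in ENR by the rule against the median gene, beside 17.2% and 16.9% of all genes, and their median log2 ratio of 0.36 was close to the 0.35 of all genes. The histone chaperone Rbbp4, shared by Sin3 and NuRD, was at 214, 221 and 298 CPM, and the NuRD remodeller Chd4 at 201, 231 and 251. Of 10 acetyltransferases, which oppose the deacetylases, none was higher and 2 were lower in ENR+CV than in ENR, beside the same 17.2% and 16.9%, with a median log2 ratio of -0.05. Hat1, the acetyltransferase with most UMIs, was at 97.7, 59.5 and 97.9 CPM and was not called in that pair. Of 7 sirtuins, the NAD-dependent deacetylases, 1 was higher and none lower in ENR+CV by the same rule, beside the same 17.2% and 16.9%. Sirt7, the one at least 2-fold higher in ENR+CV than in ENR (against 15.9% of all genes), was at 28.5, 41.2 and 61.2 CPM.

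Of 3 genes that deacetylase inhibitors raise in many cells, H1f0, the linker histone H1.0, was at 229, 250 and 866 CPM, a ratio of 3.78 (3.52 to 4.05) in ENR+CV over ENR. The cell cycle inhibitor Cdkn1a was at 139, 116 and 209 CPM, a ratio of 1.51 (1.352 to 1.68). The actin-severing protein gene Gsn went the other way, at 13.3, 33.5 and 9.18 CPM. Only H1f0 of the 3 was past 2-fold higher in ENR+CV than in ENR, against 15.9% of all genes. By the rule against the median gene, H1f0 was higher and Gsn lower (1 of 3 each, against 17.2% and 16.9%), and Cdkn1a was not called.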

How the data were processed

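Single cells of mouse intestinal organoids in ENR, ENR+CD and ENR+CV were profiled by Seq-Well, 1 library each. The authors converted reads with bcl2fastq, aligned them to mm10 (STAR is named in the submitters' processing notes, versions not given in the sources used here), collapsed them by UMI and deposited raw UMI counts and read counts per gene and barcode, with a merged table of barcodes holding 1000 or more UMIs.

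Cells with at least 1000 and fewer than 8000 UMIs and at least 400 genes were kept, which left 2545, 2383 and 985 cells, within 1 cell of the numbers the study states. No doublet caller was run. UMI counts were summed per library (5095089, 4538388 and 2942252), scaled to a total of 1000000 (CPM), and given with exact Poisson or conditional binomial intervals at 95%. Ratios were divided by the median ratio of genes with at least 20 UMIs in the pair. Clusters used Seurat 5.3.0 per library (12 components, 30 neighbours, resolution 1.35). Scaling factors came from edgeR 4.0.16 and DESeq2 1.42.0, used for no test. Gene models were GENCODE M21. Near-identical 3′ ends were sought with BLAST+ 2.17.0 in the last 600 bases, and matches of at least 50 bases were kept, a minimum lowered from 100 after a 90-base match was seen. Ratio scripts were tested on simulated data.

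Members and gene lists were chosen with earlier results of these data known. Named genes are the 10 members, at most 4 genes of each list by UMIs, and the 5 genes most like Hdac2. Also named are Hdac10, examples from the leading genes of clusters, and genes that overlap a member or match its 3′ end. Alternatives were other cell ranges, thinning, mean of cell shares, other scalings, other minimum counts, read counts and resolution 0.8. Those added after seeing the data were the mitochondrial range of 5 to 10%, other denominators and a redefined setting with no minimum.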

Additional observations from a re-analysis of the deposited data

Results flagged for a closer look

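Hdac1, Hdac2 and Hdac3 were also found in barcodes with under 1000 UMIs, which the comparisons did not use and where no control sample exists. Their summed level there was 216 CPM in ENR (474 UMIs), 252 in ENR+CD (746 UMIs) and 329 in ENR+CV (373 UMIs). Against the kept cells this was 0.960 (0.861 to 1.07), 0.925 (0.844 to 1.01) and 0.709 (0.630 to 0.795), so only in ENR+CV did the interval leave out 1. Whether these barcodes are small cells or free RNA was not tested.

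The class I level in the third of cells with the highest mitochondrial share over the other cells was 0.683 in ENR and 0.678 in ENR+CV but 1.09 in ENR+CD. Without mitochondrial and Paneth list genes in the total it was 0.815, 0.754 and 1.12. The direction differed between libraries, with 1 library each, and the difference was not tested.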

How the results depend on the processing

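No paired analysis was possible because each condition is 1 library, and no library could be left out. The summed Hdac ratio against the median gene ran, over 12 other settings, from 0.973 to 1.19 in ENR+CD over ENR, 1.06 to 1.45 in ENR+CV over ENR and 0.746 to 0.966 in ENR+CD over ENR+CV. With no minimum count, as planned, it was 1.03, 1.06 and 0.966, and Hdac2 in ENR+CV over ENR turned from 1.28 to 0.944. In that setting undetected genes stand at the floor of 3 counts and enter the median. A version over genes found in both libraries, chosen after these values were seen, gave 1.11, 1.39 and 0.821. Read counts gave 0.973, a reversal, then 1.29 and 0.746, with 2 members 2-fold higher and 1 lower in ENR+CD over ENR, and 2 lower in ENR+CD over ENR+CV. The cause was not tested. Cells with fewer than 4000 UMIs gave 1.32 for ENR+CV over ENR and 0.879 for ENR+CD over ENR+CV, and thinning gave 1.33 and 0.862. Cells with a mitochondrial share of 5 to 10%, added after seeing the data, gave 1.07 in ENR+CD over ENR, and 0 members past the 2-fold rule in any pair, with fewer cells. With edgeR TMM or median-of-ratios factors, where 2-fold is read after scaling, 0 members were 2-fold higher in ENR+CV over ENR, and in ENR+CD over ENR+CV 1 was higher and 0 lower. Cells with at least 1500 UMIs, or with fewer than 4000, gave 1 member lower in ENR+CD over ENR. All cells of the merged table gave 1 higher and 2 lower in ENR+CD over ENR+CV. The class I ratio of the third of cells with the highest mitochondrial share in ENR was 0.815 without mitochondrial and Paneth list genes in the total. Of 315 values of single members under other settings, 295 stayed within their counting interval, 19 moved outside it and 1 reversed. Depth limits Hdac8 and Hdac9 most, with 88 and 2 UMIs in all.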
